A study of Oryza sativa with 7 samples.

Results

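SPL3, SPL4, SPL11 and SPL12 are 4 rice genes of the SQUAMOSA-PROMOTER BINDING PROTEIN-LIKE (SPL) family, which are named among the 11 SPL genes that the microRNA miR156 targets in this plant. The rule names them by gene identifier and sets no limit on a measured value, and they are 4 of 26168 genes listed in the series. SPL3 is LOC_Os02g04680 (chromosome 2, 2105725 to 2110544), and SPL4 is LOC_Os02g07780 (chromosome 2, 4073882 to 4077949), 1.96 Mb further along. SPL11 is LOC_Os06g45310 (chromosome 6, 27387536 to 27391266), and SPL12 is LOC_Os06g49010 (chromosome 6, 29703529 to 29708687), 2.31 Mb further along. The files give these positions on TIGR release 7 of the rice genome and describe each of the 4 entries as an SBP-box gene family member.

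SPL proteins are plant transcription factors that bind DNA through the SBP domain. miR156 pairs with SPL transcripts and lowers their level or their translation. In flowering plants miR156 is abundant in the young shoot and declines with age, so that SPL activity increases as the plant matures. In phylogenies of the rice family, SPL3 pairs with SPL12 and SPL4 pairs with SPL11. SPL3 is known to act in crown root development in rice, and alleles of SPL4 are known to affect rice grain size.

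All groups were in the japonica cultivar Nipponbare. The paper describes both sowing in paddy fields and greenhouse culture of seedlings, and its transcriptome methods do not name which was used. Unelongated culms, the short stem bases of seedlings, came from 20-day-old wild type, mir156abckl and mir156defghi plants. Embryos of fresh wet seeds, taken just after seed filling, and shoots of 2-week-old seedlings came from the wild type and mir156abcdfghikl. The letters name the edited MIR156 genes, which are 5 in mir156abckl, 6 in mir156defghi and 10 in mir156abcdfghikl. In the last, MIR156e is the gene not named, as the study counts MIR156j with MIR156h. The genes edited in mir156abckl are those the study calls group II, and those edited in mir156defghi are group I. The edits were made with CRISPR/Cas9. The labels give 1 code per mutant group, different for embryos and shoots, and do not say whether it names a line, so the number of lines behind a group is not known here. Each deposited value is 1 FPKM per group, a count of fragments scaled for transcript length and library size, which the authors computed over 3 biological repeats. The FPKM columns hold no value per repeat, so an SD is lacking and no difference was tested here. The tables also carry p-values and q-values of the authors' own comparison, which were not used, so the ratios are given without a measure of the spread between repeats. A gene is called past 2-fold where the mutant FPKM is at least 2 times or at most 0.5 times that of the wild type and 1 of the groups reaches 1 FPKM.

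The perturbation lies in the sequences that produce miR156. Edited MIR156 alleles are shown here because they are what separates the mutants from the wild type. They are taken from the study's list of Nipponbare mutant lines, from the first line given for each genotype. The list does not say which line was sequenced, so they illustrate the kind of edit only. The 15 bases in capitals are the longest run that these alleles share.

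MIR156c in a mir156abckl line: aCAGAAGAGAGTGAGCaccacatgg

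MIR156c in a mir156abcdfghikl line: CAGAAGAGAGTGAGCaccacatgg

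MIR156h in a mir156defghi line: gaCAGAAGAGAGTGAGCcacacgg

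MIR156h in a mir156abcdfghikl line: gaCAGAAGAGAGTGAGCcacacgg

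In both MIR156c alleles the shared run is followed by accacatgg, and in both MIR156h alleles by cacacgg. The legend of the list marks a deleted base pair by a dash, and insertions and replacements by colour. The text read here does not keep the colour, and the sequences as printed above mark no deletion. The list was compared with no wild-type sequence, so the edited base itself is not marked.

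The labelled tissues were checked against genes named by their descriptions. Oleosin genes, which mark oil-storing seed tissue, summed to 34635 FPKM in wild-type embryos, where 6 were listed. In wild-type culms and shoots, where 1 or 2 were listed, they summed to between 1.58 and 8.06 FPKM. Glutelin genes, which mark endosperm, summed to 14302 FPKM in wild-type embryos and 12799 FPKM in mutant embryos (12 genes, 6 higher and 6 lower), and whether these came from endosperm or from the embryo itself was not tested. The class I KNOX genes OSH1 and OSH15, which mark the shoot meristem and young stem, had 29.9 and 99.9 FPKM in wild-type culms and were not listed in shoots. In shoots the 17 chlorophyll A-B binding protein genes summed to 50102 FPKM in the wild type and 8390 FPKM in the mutant, 16 of them lower, and the 3 Rubisco small chain genes to 22294 and 744 FPKM. In whole tissue, fewer green cells and less of these transcripts per cell cannot be told apart.

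In wild-type plants all 4 genes were lowest in embryos and highest in culms. In culms, SPL12 had 70.5 FPKM, SPL3 44.5 FPKM, SPL4 22.9 FPKM and SPL11 8.18 FPKM. In shoots, SPL3 had 18.4 FPKM, SPL12 16.8 FPKM, SPL4 12.3 FPKM and SPL11 5.61 FPKM. In embryos, SPL12 had 8.43 FPKM, SPL3 5.53 FPKM, SPL4 4.44 FPKM and SPL11 2.53 FPKM. The order was thus SPL12, SPL3, SPL4 and SPL11 in culms and embryos, while SPL3 and SPL12 were nearly level in shoots. FPKM is corrected for transcript length, which allows these comparisons between genes, but neighbours in the order have no error to be set against. The tissues were scaled in separate tables, so that ratios between them are rough. Culms had the widest gap for SPL12, with 8.36 times its embryo FPKM and 4.20 times its shoot FPKM, and the narrowest for SPL11, with 3.24 and 1.46 times. Between shoots and embryos the order was another, with 3.33 times for SPL3, 2.77 for SPL4, 2.22 for SPL11 and 1.99 for SPL12.

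**Figure D1:**
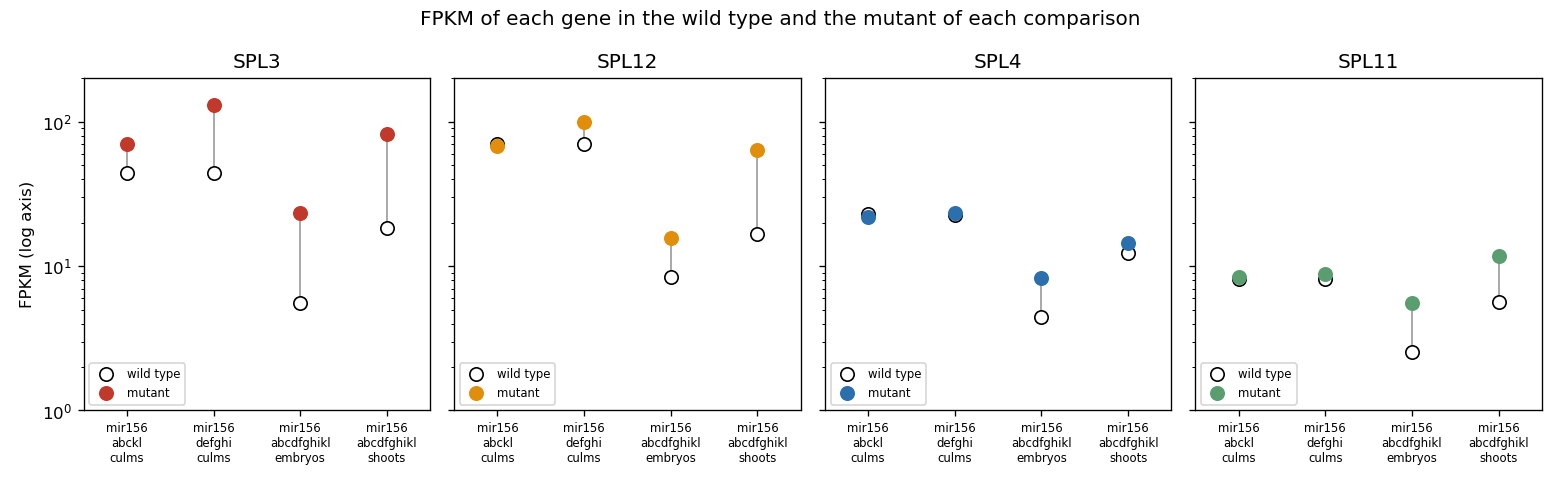
FPKM (log axis) of SPL3, SPL12, SPL4 and SPL11 in the wild type (open points) and the mutant (filled points) of each of the 4 comparisons, 1 pooled value per group and no error bars. The wild-type points of both culm comparisons are the same plants. SPL3 is higher in the mutant in all 4 comparisons, and SPL4 stays close to its wild type except in embryos.

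The 4 genes held most of the miR156 target transcripts in the wild type. Their summed FPKM was 74.0% of that of the 10 target genes listed in culms, 70.9% of that of the 11 listed in shoots and 62.1% of that of the 9 listed in embryos. In the mutants the share was 72.6% in mir156abckl culms, 66.7% in mir156defghi culms, 58.8% in shoots and 33.9% in embryos. It was lower than in the wild type in all 4 comparisons, although the sum of the 4 genes was higher in every mutant. In embryos the sum was 20.9 FPKM in the wild type and 52.6 FPKM in mir156abcdfghikl, and in shoots 53.1 and 173 FPKM. In mir156abckl culms it was 168 FPKM and in mir156defghi culms 262 FPKM, against 146 and 145 FPKM for the wild type in the same tables.

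**Figure D2:**
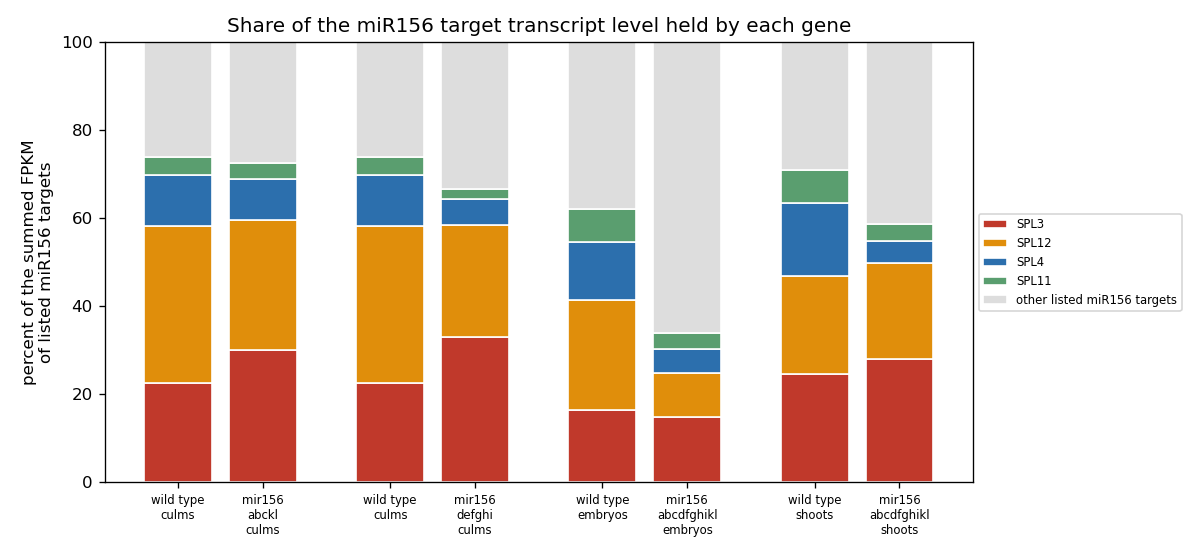
Share (percent) of the summed FPKM of the listed miR156 target genes held by SPL3, SPL12, SPL4, SPL11 and the other targets, in the wild type and the mutant of each comparison. The 4 genes together hold 62.1% in wild-type embryos and 33.9% in mutant embryos, the largest gap among the 4 comparisons.

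In mir156abckl culms SPL3 was the only one of the 4 genes whose ratio exceeded 1.5. It had 44.5 FPKM in the wild type and 69.7 FPKM in the mutant, a ratio of 1.57 and a log2 ratio of 0.65, above that of 89.6% of the genes. The other 3 had nearly the same level in both genotypes. SPL4 had 22.9 and 21.8 FPKM (log2 ratio -0.07), SPL11 had 8.18 and 8.36 FPKM (0.03), and SPL12 had 70.5 and 68.4 FPKM (-0.04). The signs of SPL4 and SPL12 turned to 0.02 and 0.04 when both groups were scaled to the same upper quartile, and to 0.05 and 0.07 when scaled to the same sum. None of the 4 was past 2-fold, against 13.4% of all genes, 6.17% of them higher in the mutant. The median log2 ratio of the 4 was -0.01, and that of all genes -0.02.

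In mir156defghi culms SPL3 and SPL12 had more FPKM than in the wild type, and SPL4 and SPL11 were again close to it. SPL3 had 44.2 FPKM in the wild type and 130.0 FPKM in the mutant, a ratio of 2.94 above that of 97.7% of the genes. SPL12 had 70.1 and 99.7 FPKM, a ratio of 1.42 and a log2 ratio of 0.51. SPL4 had 22.8 and 23.4 FPKM (log2 ratio 0.04), and SPL11 had 8.14 and 8.86 FPKM (0.12). SPL3 was the only one of the 4 past 2-fold, against 11.4% of all genes, 5.3% of them higher in the mutant. The median log2 ratio of the 4 was 0.32, beside -0.02 for all genes. Its level of 130.0 FPKM placed SPL3 above 97.3% of the genes listed for this mutant, and it was the highest of the 10 listed targets.

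Both culm mutants share 1 wild-type group, whose FPKM for each of the 4 genes was 0.994 times as high in the second table. Set side by side, the log2 ratios were 0.65 in mir156abckl and 1.56 in mir156defghi for SPL3, and -0.04 and 0.51 for SPL12. The difference between the mutants was 0.91 for SPL3 and 0.55 for SPL12. For SPL4 and SPL11 it was 0.11 and 0.09. In culms, then, SPL3 and SPL12 differed more from mir156abckl to mir156defghi than SPL4 and SPL11 did, a difference that was not tested. The summed FPKM of the chlorophyll A-B binding protein genes was also higher in the mutant in both, 1.48 times in mir156abckl and 1.83 times in mir156defghi, and that of the 4 Rubisco small chain genes was 1.15 and 1.18 times. OSH1 had 29.9 and 44.6 FPKM in the mir156abckl comparison and 29.8 and 43.2 FPKM in that of mir156defghi, ratios of 1.49 and 1.45. OSH15 had 99.9 and 84.7 FPKM, and 99.3 and 76.6 FPKM, ratios of 0.848 and 0.772. The part of these markers in the values of the 4 genes was not tested.

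In mir156abcdfghikl embryos all 4 genes had more FPKM than in the wild type. SPL3 had 5.53 FPKM in the wild type and 23.2 FPKM in the mutant, a ratio of 4.19 and a log2 ratio of 2.07, above that of 99.3% of the genes. SPL11, the weakest of the 4, had 2.53 and 5.55 FPKM, a ratio of 2.19. SPL4 had 4.44 and 8.29 FPKM, a ratio of 1.87, and SPL12 had 8.43 and 15.6 FPKM, a ratio of 1.85. The ratios of the last 3 were thus close to each other and on both sides of the limit. Past 2-fold were 2 of the 4, SPL3 and SPL11, against 7.85% of all genes, 4.84% of them higher in the mutant. With 1 FPKM added to both groups SPL11 had a log2 ratio of 0.89 and SPL3 alone was past 2-fold. With both groups scaled to the same sum, which raised every log2 ratio by 0.23, all 4 were past it. The share of all genes was not counted again in either case. The lowest ratio of the 4, that of SPL12, still exceeded those of 94.2% of the genes, and the median log2 ratio was 1.02 beside 0.03 for all genes. Oleosin transcripts summed to 34635 FPKM in the wild type and 28563 FPKM in the mutant, and chlorophyll A-B binding protein transcripts to 96.7 and 259 FPKM. The 4 Rubisco small chain genes summed to 624 and 473 FPKM, 2 higher and 2 lower. OSH1 had 7.18 and 10.8 FPKM and OSH15 5.95 and 4.91 FPKM. Their part in the result was not tested.

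In mir156abcdfghikl shoots, 3 of the 4 genes were past 2-fold. SPL3 had 18.4 FPKM in the wild type and 82.5 FPKM in the mutant, a ratio of 4.48. SPL12 had 16.8 and 64.1 FPKM, a ratio of 3.82, and SPL11 had 5.61 and 11.8 FPKM, a ratio of 2.10. SPL4 had 12.3 and 14.5 FPKM, a ratio of 1.18. SPL3 and SPL12 thus held a similar place, with SPL11 near the limit and SPL4 close to its wild type. SPL11 had a log2 ratio of 0.98 once the median of all genes was set to 0, and 0.95 with 1 FPKM added to both groups. This left 2 of the 4 past the limit in each case, and the share of all genes was not counted again. Shoots differed widely between the genotypes as a whole, with 50.0% of all genes past 2-fold and 26.8% higher in the mutant. Against this spread the log2 ratio of SPL3 lay above that of 87.5% of the genes, of SPL12 above 85.8%, of SPL11 above 74.6% and of SPL4 above 52.8%. The median log2 ratio of the 4 was 1.504 beside 0.15 for all genes. The percentile of SPL3 was lower here than in embryos although its ratio was of the same size. The summed photosynthesis transcripts given above were lower in the mutant, while the 4 genes had more FPKM. The part of that difference in the values of the 4 genes was not tested.

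**Figure D3:**
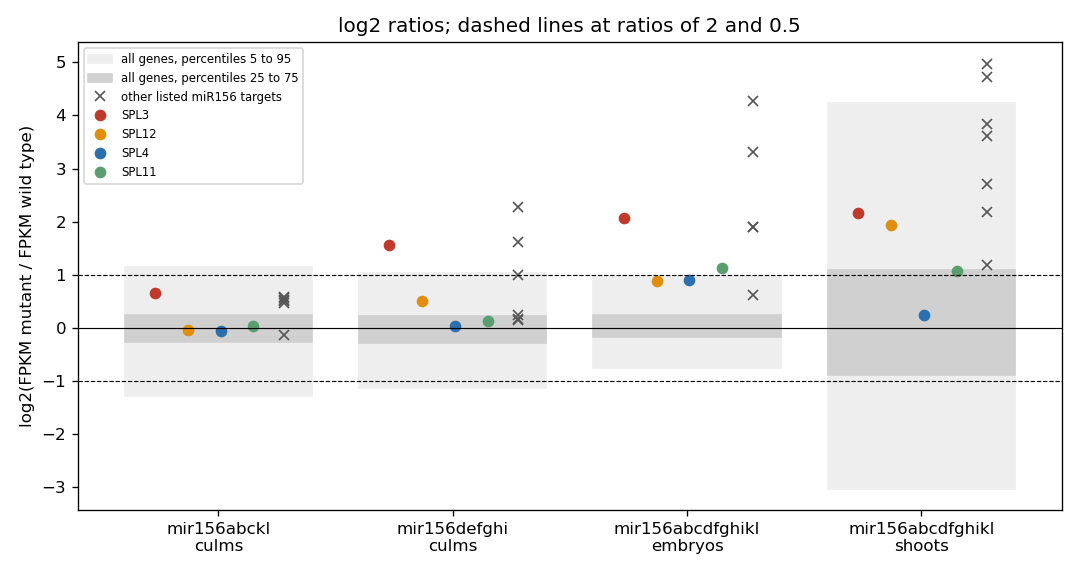
log2 ratio of mutant to wild-type FPKM for SPL3, SPL12, SPL4 and SPL11 (coloured points) and the other listed miR156 targets (crosses, no minimum FPKM), over grey bars for the central parts of all genes. SPL3 lies above 89.6% of genes in mir156abckl culms and above 99.3% in embryos, and the grey bars are widest in shoots.

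The same decuple genotype was measured in embryos and shoots, each against its own wild type. The codes of these mutant groups differ, so tissue and a possible difference of line cannot be told apart. SPL3 had nearly the same log2 ratio in both, 2.07 and 2.16. SPL11 also did, with 1.13 and 1.07. SPL12 had 0.89 in embryos and 1.93 in shoots, 1.05 more, and SPL4 had 0.90 in embryos and 0.24 in shoots, 0.66 less. The difference in log2 ratio between embryos and shoots therefore went opposite ways for SPL12 and SPL4, as a description of 1 value each. The ratios of all genes were spread more widely in shoots, where both genes had a lower place among them. SPL12 was above 94.2% of the genes in embryos and 85.8% in shoots, and SPL4 above 94.3% and 52.8%.

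The balance within each pair of paralogs was set side by side between genotypes, from 1 pooled value per group and with no error. SPL12 had the higher FPKM in wild-type culms and embryos, where SPL3 was at 0.631 and 0.656 times its level. In every mutant SPL3 was the higher of both, at 1.02 times SPL12 in mir156abckl culms, 1.30 in mir156defghi culms, 1.49 in embryos and 1.29 in shoots. In wild-type shoots the ratio was already 1.10. Any common factor of scale between the groups cancels in such a ratio. The value of 1.02 is too close to 1 to give an order without an error. SPL4 had the higher FPKM than SPL11 in all groups. Its ratio to SPL11 was 2.80 in wild-type culms, 2.61 in mir156abckl culms and 2.65 in mir156defghi culms. It was 1.76 in wild-type and 1.495 in mutant embryos, and 2.19 in wild-type and 1.23 in mutant shoots, so that SPL11 came closest to SPL4 in mutant shoots. Whether reads were shared between the paralogs was not measured.

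**Figure D4:**
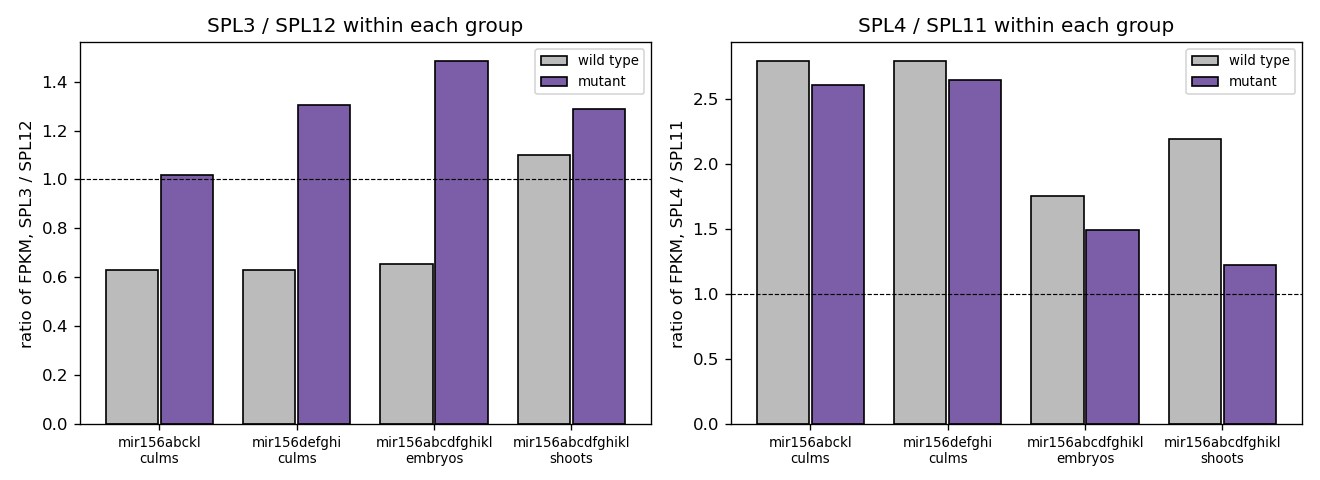
Ratio of FPKM within each paralog pair, SPL3 over SPL12 (left) and SPL4 over SPL11 (right), in the wild type (grey) and the mutant (purple) of each comparison, 1 pooled value per bar, with a dashed line at equal levels. SPL3 over SPL12 is 0.631 and 0.656 in wild-type culms and embryos and between 1.02 and 1.49 in the mutants.

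The place of the 4 genes among the 11 targets was taken from all targets listed in a table, with no minimum FPKM. The other 7 targets are SPL2, SPL7, SPL13, IPA1 (SPL14), SPL16, SPL17 and SPL18, among which IPA1 is known for its role in tillering and panicle branching. In mir156abckl culms 0 of the 6 others listed had a higher log2 ratio than SPL3, and 5 of the 6 had a higher one than SPL4, SPL11 and SPL12. In mir156defghi culms 2 of 6 were above SPL3 and 3 of 6 above SPL12, while all 6 were above SPL4 and SPL11. The highest there was IPA1, with 14.1 and 68.2 FPKM, and the lowest SPL16, with 0.950 and 1.05 FPKM. In embryos 2 of the 5 others listed were above SPL3, and 4 of the 5 were above SPL4, SPL11 and SPL12. The highest was SPL13, with 0.123 and 2.38 FPKM, and the lowest SPL2, with 0.542 and 0.837 FPKM. In shoots 6 of 7 were above SPL3 and SPL12, SPL18 by little over SPL3 (2.18 against 2.16), and all 7 were above SPL11 and SPL4. The highest was IPA1, with 1.07 and 33.8 FPKM, and the lowest SPL2, with 12.4 and 28.3 FPKM. SPL3 thus had the highest log2 ratio of the 10 listed targets in mir156abckl culms only, and by a narrow lead with no error to set it against. It had 0.65 there, and SPL13, IPA1, SPL18, SPL17 and SPL16 had 0.58, 0.56, 0.53, 0.51 and 0.47, while SPL2 had -0.13. At most 1 of the others was below SPL4 or SPL11 in any of the 4 comparisons. Of the others, 3 had under 1 FPKM in wild-type embryos and 3 in wild-type shoots, while SPL3, SPL4, SPL11 and SPL12 had at least 2.53 FPKM in every group. In level, IPA1 had 86.9 FPKM in mutant embryos, where SPL3 was second with 23.2 FPKM and SPL12 the third.

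The 8 rice SPL genes without a miR156 site serve as a comparison from the same family. In mir156defghi culms, 5 of them reached 1 FPKM. Of these, 0 were past 2-fold upward, beside 5.3% of all genes, and 1 was past it downward, beside 1367 of 22237 genes. This was SPL19, with 15.5 and 7.64 FPKM. In mir156abckl culms 1 of 6 was past 2-fold upward, beside 6.17% of all genes. This was SPL8, with 0.259 and 1.24 FPKM, which reached the minimum in the mutant only. The median log2 ratio of the SPL genes without a site was 0.01 in mir156abckl culms and -0.11 in mir156defghi culms. That of all genes was -0.02 in both. In embryos 0 of 5 were past the limits, beside 7.85% of all genes, with a median log2 ratio of 0.22 beside 0.03 for all genes. In shoots 3 of 8 were past 2-fold upward, beside 26.8% of all genes, with a median log2 ratio of 0.68 beside 0.15 for all genes. SPL5 and SPL10 were both listed at 0 in wild-type shoots and had 6.12 and 9.68 FPKM in the mutant, and SPL19 had 1.90 and 4.48 FPKM. MADS50 (LOC_Os03g03070), a MADS-box gene that SPL3 is known to activate in rice crown roots, was close to its wild type in culms. It had 30.7 and 31.3 FPKM in the mir156abckl comparison and 30.6 and 33.8 FPKM in that of mir156defghi, and it was not listed in embryos. In shoots MADS50 had 34.7 and 17.0 FPKM, a ratio of 0.49 and so past 2-fold downward, beside 5109 of 22057 genes. SPL3 was higher in the mutant there.

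The genes with the most similar profiles were sought over the 7 groups. Of 19354 genes listed in every table, the 19014 with a mean of at least 1 FPKM over the groups were used. The measure was the root mean square difference of log2(FPKM + 1) after subtracting each gene's mean. The groups share wild types and scaling, so this is a description. For SPL3 the closest gene was LOC_Os07g46280, a beta-glucosidase family gene (difference 0.42), and its paralog SPL12 was the second (0.43). The third was LOC_Os07g09710, an F-box protein gene (0.43). SPL4 was closest to LOC_Os04g34000, a digalactosyldiacylglycerol synthase gene (0.15), LOC_Os03g13860, a ras-related protein gene (0.15), and LOC_Os06g36740 (0.16). SPL11 was closest to LOC_Os02g43670, a transferase family gene (0.09), LOC_Os02g13810 (0.13) and LOC_Os01g66130, an armadillo repeat gene (0.15). SPL12 was closest to the receptor-like kinase genes LOC_Os02g42370 (0.21) and LOC_Os04g58910 (0.22) and to LOC_Os02g52550 (0.26). SPL11 and SPL4, the other pair, differed by 0.41, and SPL11 held rank 1229 among the genes closest to SPL4. By Pearson correlation instead, 0 of the 3 closest genes were the same for SPL3, SPL4 and SPL12 and 1 of 3 for SPL11, so the ranking depends on the measure.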

How the data were processed

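The authors built stranded mRNA libraries and removed adapter-containing and low-quality reads. They aligned the rest to TIGR release 7 with Hisat2 and computed FPKM with Cufflinks (2.2.1 in the submitters' processing notes). The deposited FPKM columns hold 1 value per group over 3 repeats, scaled separately in each of 4 tables. Pooled values hide the error, and the tables hold no counts, so the depth per library is unknown. The tables also hold log2 ratios, a direction, p-values and q-values of the authors' own comparison, which were not used.

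Ratios, percentiles and shares were computed from the FPKM columns in Python 3.11.15 (pandas 2.3.3, numpy 2.4.6) and plotted with matplotlib 3.10.9. No test was run. The counting past 2-fold was run on simulated data, where the ratios of 200 genes per comparison were set well past the limit. All 200 were recovered in each, an outcome fixed by that setting. This checks the code of the count only and says nothing about the error of the real ratios.

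The genes named are the 4 members, the other SPL genes, MADS50, the 3 closest profiles for each member, and tissue markers (OSH1, OSH15 and families found by their descriptions). The members were given by identifier, but they, the lists and the limits were chosen with earlier results of these data known. Alternatives were 1 or 0.1 FPKM added, a ratio limit of 1.5, 3 other scalings, other FPKM minimums and Pearson correlation. Of the 4 identifiers, 0 were found in the RefSeq gene table, so no promoter or protein sequence is shown. The series gives no pairing between groups.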

Additional observations from a re-analysis of the deposited data

How the results depend on the processing

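Over the 16 log2 ratios of the 4 genes, 0.1 FPKM added to both groups changed no sign and no side of the 2-fold limit. A ratio limit of 1.5 gave 1 gene in mir156abckl culms and 4 in embryos. All genes were not counted again at that limit, with FPKM added or under another scaling. The counts of the 4 genes at these settings thus have no share of all genes beside them. In embryos, 1 FPKM added left 1 gene past 2-fold, and scaling to the same sum gave 4, with log2 ratios of 1.13 for SPL4 and 1.12 for SPL12. Scaling to the same sum shifts all log2 ratios by 0.11 to 0.43, most in shoots. With at least 1 FPKM required in both groups, 1921 genes in place of 2977 were past 2-fold in mir156abckl culms. The number was 1603 in place of 2546 in mir156defghi culms and 897 in place of 1549 in embryos. The genes counted were 20688 in place of 22295, 20725 in place of 22237 and 18448 in place of 19741, a smaller drop. The shares of all genes given above thus include genes under 1 FPKM in 1 of the groups. With 0.1 FPKM added, 1 of the 3 genes closest to SPL3 was the same. No paired analysis was possible because each group has 1 pooled value, and for the same reason no repeat could be left out. The FPKM columns used here give ratios with no error.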
